A study of Mus musculus with 12 samples.

Results

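Genes for acute-phase and antimicrobial proteins were followed in the lens cells (LCs) that remain on the capsule after cataract surgery. The 9 genes, Lcn2, Saa3, Ptx3, Hp, S100a8, S100a9, Defb1, Slpi and Steap4, were taken by symbol from tables of 45859 genes. The list was chosen with earlier results of these data known. RNA-Seq measured 12 libraries, 3 from each of 4 conditions. Mice were 2 months old, and all had lens fiber cells removed in vivo, which left the lens capsule with its attached epithelial cells. Wild type (WT) mice were of the strain C57BL/6, and mice lacking β8 integrin in the lens (β8ITG-cKO) were of the strain Mixed (C57BL/6, 129S1/Sv ). The β8ITG-cKO mice carried a floxed Itgb8 allele and the lens-specific MLR10-Cre transgene. Capsules were taken at 0 hours or 24 hours post cataract surgery (PCS), and several were pooled in each library. All conditions share the surgery, and strain and genotype cannot be told apart here. In bulk RNA, fewer cells of a type and less RNA per cell cannot be told apart either.

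The acute-phase response is the change in secreted proteins that follows injury or infection. Interleukins of the IL-1 and IL-6 families drive it through NF-κB, STAT3 and the C/EBP transcription factors. The liver is its best known source, but epithelia make many of the same proteins at a wound. Lcn2 (lipocalin-2) binds bacterial siderophores and so withholds iron. Saa3 is a serum amyloid A protein made outside the liver, Ptx3 is a long pentraxin that marks microbes and binds extracellular matrix, and Hp (haptoglobin) captures free hemoglobin. S100a8 and S100a9 are the subunits of calprotectin, a metal-chelating protein abundant in neutrophils. Defb1 is a β-defensin of epithelia, and Slpi is a secreted inhibitor of neutrophil elastase. Steap4 differs from the others in that it is a membrane metalloreductase of iron and copper, itself induced by inflammation.

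The genes lie on 5 chromosomes of the mouse genome (GRCm38). Lcn2 lies at chr2:32384633-32388252 and Slpi at chr2:164354070-164389095, both on the minus strand. S100a8 lies at chr3:90668978-90670035 on the plus strand and S100a9 at chr3:90692632-90695721 on the minus strand, with 22596 bases between them. Ptx3 lies at chr3:66219910-66225805, within Veph1, which is on the opposite strand. Steap4 is at chr5:7960457-7982213, Saa3 at chr7:46711998-46715700, Defb1 at chr8:21776599-21795185 and Hp at chr8:109575128-109579172. Promoter windows of RefSeq (GRCm38.p6), from 250 bases before to 50 after the start, were found for 7 of the 9 genes. Defb1 and Hp had none.

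Binding letters of 3 acute-phase regulators were searched on both strands of those windows. The C/EBP letters TTGCNNAA were found in the windows of 6 of the 7 genes, all but S100a8, while 10.8% of all 32841 windows hold them. The NF-κB motif was found in the windows of Ptx3 and Steap4, with 2 overlapping matches at the start of Ptx3 and 2 separate ones in Steap4, against 8.46% of all windows. The STAT letters TTCNNNGAA were found in the Steap4 window alone, against 8.3% of all windows. A match of letters is not evidence of binding. The C/EBP matches are shown because they are what most of these promoters share, 5′ to 3′ on the strand of the gene, with the matched letters in capitals and 20 bases on each side where the window allows, or 10 for Lcn2, where an exon is annotated.
Lcn2 (chr2:32387938-32387965, minus strand): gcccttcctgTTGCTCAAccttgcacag
Saa3 (chr7:46715748-46715795, minus strand): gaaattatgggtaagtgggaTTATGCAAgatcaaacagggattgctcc
Ptx3 (chr3:66219810-66219857, plus strand): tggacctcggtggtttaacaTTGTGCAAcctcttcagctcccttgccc
S100a9 (chr3:90695930-90695971, minus strand): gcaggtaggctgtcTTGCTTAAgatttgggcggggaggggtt
Slpi (chr2:164356721-164356757, minus strand): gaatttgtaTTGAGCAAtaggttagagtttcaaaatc
Steap4 (chr5:7960365-7960412, plus strand): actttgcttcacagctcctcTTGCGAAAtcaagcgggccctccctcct

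Values are FPKM (fragments scaled to transcript length and to mapped fragments), a level per length, as deposited for each library. Summed FPKM ran from 446531 to 740140 per library, and the relative depth, read from the steps between low values, from 0.87 to 1.09, while the number of reads is unknown. The lens epithelial markers Foxe3 and Pax6 were at 25.5 FPKM or more in all 12 libraries. From 0 to 24 hours the mean of Foxe3 fell from 74.3 to 36.3 FPKM in WT and from 142 to 31.2 FPKM in β8ITG-cKO. The mean of Pax6 changed less, from 90.5 to 78.7 FPKM in WT and from 88.4 to 70.3 FPKM in β8ITG-cKO. The mean of Cdh1, the gene of the epithelial marker E cadherin, rose in WT from 59.1 to 80.9 FPKM. In β8ITG-cKO the Cdh1 libraries had 93.2 to 98.3 FPKM at 0 hours and 37.7 to 46.5 FPKM at 24 hours. Of 8 lens epithelial markers, 3 were called lower in WT and 7 in β8ITG-cKO, against 3.92% and 3.77% of all genes. All 10 fiber cell markers tested were called lower in both genotypes. The part of this shift in the rises below was not tested. A value of exactly 0 can be a failed estimate, since the lens crystallin gene Cryaa was listed at 0 in WT 0 hours replicate 2 while no other library had under 8385 FPKM. The deleted gene, Itgb8, had 7.26, 10.8 and 8.42 FPKM in WT and 6.83, 4.58 and 7.31 FPKM in β8ITG-cKO at 0 hours, and 9.08, 8.38 and 9.58 against 9.28, 11.8 and 10.3 FPKM at 24 hours PCS, so its FPKM did not separate the genotypes. The floxed region is a part of the gene, which FPKM over the whole gene cannot check. Retinal markers stood apart in the β8ITG-cKO 24 hours libraries, where 12 of 12 were called higher than in WT, against 3.37% of all genes. They summed to 994 to 1180 FPKM there, against 88.8 to 166 FPKM in WT at 24 hours. They were also high in WT 0 hours replicate 2, at 1390 FPKM. The part of this RNA in the differences below was not tested.

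All 9 genes were at or near the floor at 0 hours PCS, except Lcn2, and were measured in every library at 24 hours PCS in both genotypes. The mean of Lcn2 rose to 2340 FPKM in WT and to 1720 FPKM with the deletion, while the means of Ptx3 and Steap4 reached 38.0 and 36.1 FPKM in WT and no other gene passed 24.7 FPKM. The genotypes then parted by gene at 24 hours. The highest β8ITG-cKO library was under the lowest WT library for Defb1, Slpi, S100a8, S100a9 and Ptx3, while the libraries of Lcn2, Steap4, Saa3 and Hp overlapped. A gene was called when its limma adjusted P was at most 0.05, the group means differed over 2-fold and by over 2 FPKM, and at least 1 of them reached 2 FPKM. Differences are given on the log2(FPKM + 1) scale, which understates the change of low genes.

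**Figure D1:**
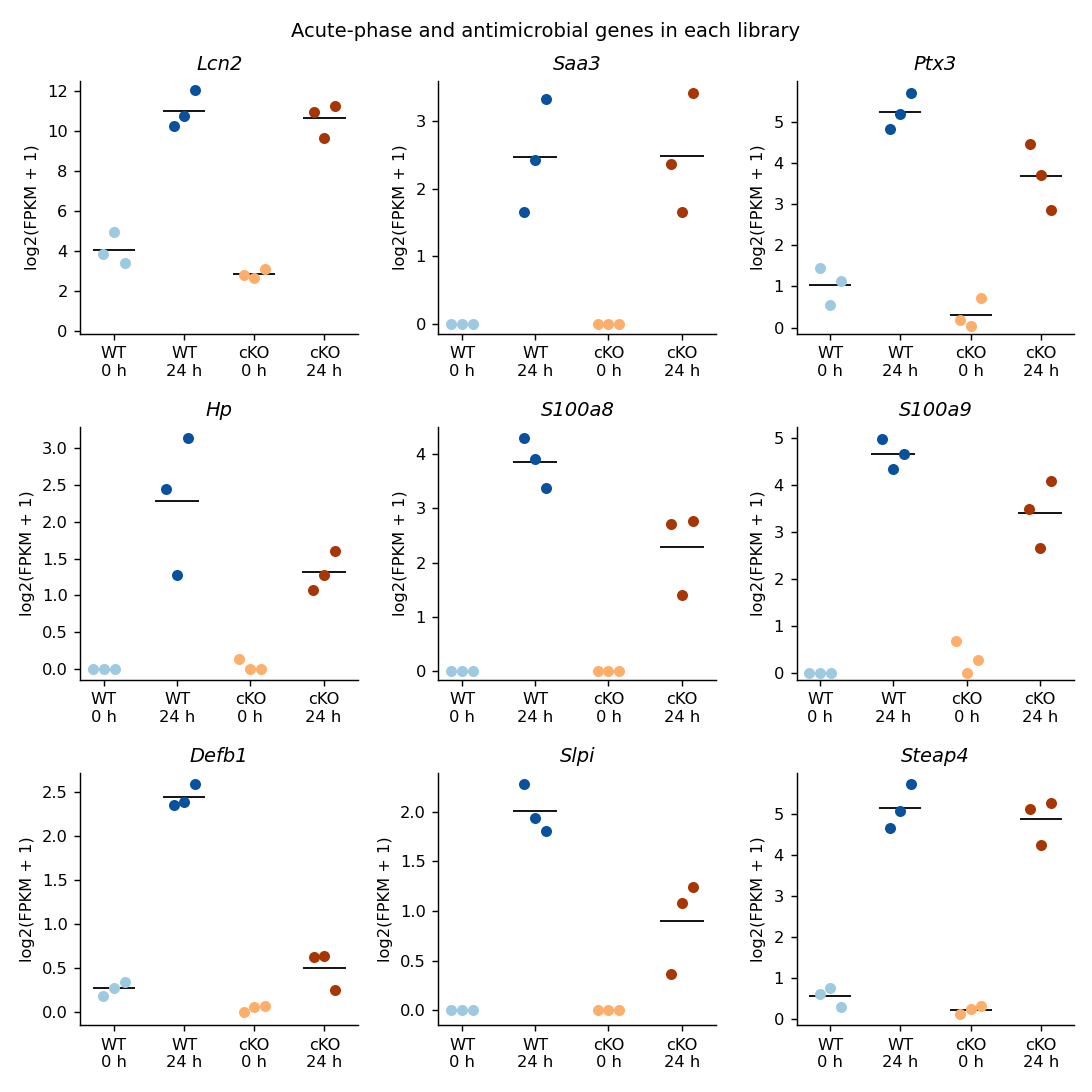
Each panel plots log2(FPKM + 1) of a gene (vertical axis) in the 12 libraries by condition (horizontal axis), 1 point per library, with the mean as a line where no value of the condition is 0. Within each genotype the 24 hours points lie above the 0 hours points in all 9 panels, and the β8ITG-cKO points lie below the WT points at 24 hours for Ptx3, S100a8, S100a9, Defb1 and Slpi.

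Lcn2 had the highest FPKM of the 9 genes in every library. It had 13.4, 29.2 and 9.55 FPKM in the WT 0 hours libraries and 1214, 1691 and 4110.4 FPKM in the WT 24 hours libraries. In β8ITG-cKO it had 5.79, 5.19 and 7.44 FPKM at 0 hours and 1966, 795 and 2413 FPKM at 24 hours PCS. Time PCS therefore separated the libraries of each genotype, while the genotypes overlapped at 24 hours. The ratio of the mean levels over time was 135 in WT and 281 in β8ITG-cKO, with differences of 6.94 ± 0.51 (SE, n = 3 per group, limma adjusted P = 0.000212) and 7.78 ± 0.38 (adjusted P = 9.8e-06). Lcn2 ranked between 1218 and 6285 among all genes by FPKM at 0 hours, and between 19 and 41 at 24 hours. At 24 hours it made up 91.3% to 96.9% of the summed FPKM of the 9 genes. Its genotype difference at 24 hours was −0.39, with a 95% confidence interval from −1.7 to 0.93 (adjusted P = 0.752), an interval wide enough to hold a more than 2-fold difference.

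Saa3 was listed at 0 in all 6 libraries of 0 hours. At 24 hours PCS it had 2.15, 4.35 and 9.01 FPKM in WT and 4.14, 2.16 and 9.72 FPKM in β8ITG-cKO. The genotypes overlapped almost completely, with a difference of 0.02 and an interval from −1.22 to 1.25 (limma adjusted P = 0.991). Saa3 passed the test over time in WT (2.47 ± 0.38, adjusted P = 0.0034) and in β8ITG-cKO (2.48 ± 0.39, adjusted P = 0.00158). Fitted differences against a group listed at 0 depend on the pseudocount of 1 and give no fold. The serum amyloid genes of the liver, Saa1, Saa2 and Saa4, were listed at 0 in nearly every library, the exception being Saa2 at 0.17 FPKM in β8ITG-cKO 24 hours replicate 3.

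Ptx3 had 1.73, 0.46 and 1.2 FPKM at 0 hours and 27.4, 35.2 and 51.3 FPKM at 24 hours PCS in WT. In β8ITG-cKO it had 0.13, 0.02 and 0.64 FPKM at 0 hours and 21, 12 and 6.31 FPKM at 24 hours. Both genotypes therefore gained Ptx3, and the highest β8ITG-cKO library at 24 hours stayed below the lowest WT library. The mean level rose 33.7-fold in WT (4.2 ± 0.29, limma adjusted P = 0.000169) and 50.1-fold in β8ITG-cKO (3.37 ± 0.38, adjusted P = 0.000333). The folds rest on 0 hours values near the floor, and the order of the genotypes depends on the scale. At 24 hours the mean was 2.9-fold lower in β8ITG-cKO, a difference of −1.56 with an interval from −2.50 to −0.63, which did not pass the threshold (limma adjusted P = 0.0668). It passed in 1 fit over all 12 libraries (adjusted P = 0.021) and without β8ITG-cKO replicate 1 (adjusted P = 0.034). Because Ptx3 lies within Veph1, and the strand setting of the counting is not given in the sources used here, reads of the pair might mix. Veph1 went the other way, with 1.08 to 1.78 FPKM at 0 hours and 0.43 to 0.74 FPKM at 24 hours in WT.

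Hp was listed at 0 in 5 of the 6 libraries of 0 hours and at 0.1 FPKM in β8ITG-cKO replicate 1. At 24 hours PCS it had 4.44, 1.43 and 7.8 FPKM in WT and 1.1, 1.42 and 2.03 FPKM in β8ITG-cKO. WT replicate 2 lay within the β8ITG-cKO range, so the genotypes overlapped. Hp was called in WT over time (2.29 ± 0.42, limma adjusted P = 0.00658). In β8ITG-cKO it had an adjusted P of 0.000745 (1.27 ± 0.17), but its mean of 1.52 FPKM was under the 2 FPKM that a call needed. The genotype difference at 24 hours was −0.97 (interval −1.98 to 0.04, adjusted P = 0.264) and −1.47 without WT replicate 2 (adjusted P = 0.0379).

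S100a8 was listed at 0 in all 6 libraries of 0 hours, and S100a9 in 4 of them, with 0.59 and 0.21 FPKM in β8ITG-cKO replicates 1 and 3. At 24 hours PCS S100a8 had 18.5, 14 and 9.29 FPKM in WT and 5.52, 1.65 and 5.83 FPKM in β8ITG-cKO. S100a9 had 30.7, 19.3 and 24.2 FPKM in WT and 10.2, 5.31 and 15.9 FPKM in β8ITG-cKO. The calprotectin subunits moved together, and for both of them the lowest WT library at 24 hours lay above the highest β8ITG-cKO library. The level of S100a8 was 0.311 to 0.724 of that of S100a9 in the 24 hours libraries, with the ranges of the genotypes overlapping. Over time S100a8 rose by 3.85 ± 0.24 in WT (limma adjusted P = 0.000103) and 2.29 ± 0.34 in β8ITG-cKO (adjusted P = 0.00126), and S100a9 by 4.66 ± 0.19 (adjusted P = 4.59e-05) and 3.09 ± 0.34 (adjusted P = 0.000323). At 24 hours the means were 3.21-fold lower for S100a8 and 2.36-fold lower for S100a9 in β8ITG-cKO. Neither passed the threshold in the pairwise fit. The difference was −1.56 for S100a8 (interval −2.48 to −0.63, limma adjusted P = 0.0658) and −1.25 for S100a9 (interval −2.07 to −0.44, adjusted P = 0.0862). Both did in 1 fit over all 12 libraries (adjusted P = 0.00984 and 0.0213), and S100a9 also did without β8ITG-cKO replicate 3 (adjusted P = 0.0464).

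Defb1 showed the clearest split between the genotypes. It had 0.14, 0.21 and 0.27 FPKM at 0 hours and 4.09, 4.22 and 5.01 FPKM at 24 hours PCS in WT. In β8ITG-cKO it was listed at 0, 0.04 and 0.05 FPKM at 0 hours and had 0.54, 0.55 and 0.19 FPKM at 24 hours. The WT libraries at 24 hours lay close together, and the β8ITG-cKO libraries stayed far below them. The mean rose 21.4-fold in WT (2.17 ± 0.16, limma adjusted P = 0.000213), and at 24 hours it was 10.4-fold lower in β8ITG-cKO than in WT (−1.94 ± 0.17, adjusted P = 0.00146). The rise over time in β8ITG-cKO was not tested, because the mean over those libraries was under the 0.5 FPKM filter, although the 24 hours libraries lay above those of 0 hours. Defb1 entered the tests between genotypes only through its WT 24 hours values, as its mean was under 0.5 FPKM in each other condition, so the fold and the P are to be read with that selection. Without any filter the adjusted P at 24 hours was 0.0152. These are low levels, and the number of reads behind them is unknown.

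Slpi was listed at 0 in all 6 libraries of 0 hours. At 24 hours PCS it had 3.85, 2.83 and 2.5 FPKM in WT and 0.29, 1.12 and 1.37 FPKM in β8ITG-cKO. The libraries of the genotypes were apart, with a mean 3.31-fold lower in β8ITG-cKO. The difference of −1.11 ± 0.26 lay at the threshold (limma adjusted P = 0.0497) and was past it with none of the 6 libraries left out in turn (adjusted P = 0.0613 to 0.115). The rise in WT was 2.01 ± 0.18 (adjusted P = 0.000517), and the rise in β8ITG-cKO was under the filter and not tested.

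Steap4 had 0.53, 0.7 and 0.23 FPKM at 0 hours and 24.1, 32.7 and 51.7 FPKM at 24 hours PCS in WT. In β8ITG-cKO it had 0.09, 0.19 and 0.24 FPKM and then 33.4, 17.8 and 37.2 FPKM. The libraries of 24 hours overlapped between genotypes. The mean level rose 74.4-fold in WT (4.59 ± 0.27, limma adjusted P = 9.07e-05) and 168-fold in β8ITG-cKO (4.63 ± 0.25, adjusted P = 1.51e-05). Both folds rest on 0 hours values near the floor, while the fitted rises of the genotypes were nearly alike. The genotype difference at 24 hours was −0.28, with an interval from −1.08 to 0.52 (adjusted P = 0.697).

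Over time in WT, 9 of the 9 genes were called higher, against 10.3% of all 15146 genes tested, and their groups did not overlap for any of the 9, against 31.3% of all genes. The median difference of the 9 was 3.85, and that of all genes was 0.16. All genes together gave 1566 higher and 593 lower calls in WT, 983 and 963 after rescaling to the same median, and all 9 genes stayed called higher. In β8ITG-cKO, 7 were tested and 6 were called higher, against 11.3% of all genes tested, and the groups were apart in the rising direction for all 9, against 42.9%. The genes listed at 0 at 0 hours passed the filter only through their 24 hours values, so that they could hardly be tested without differing, and the counts are descriptions. The genes were chosen with earlier results of these data known, which makes their direction no independent evidence.

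**Figure D2:**
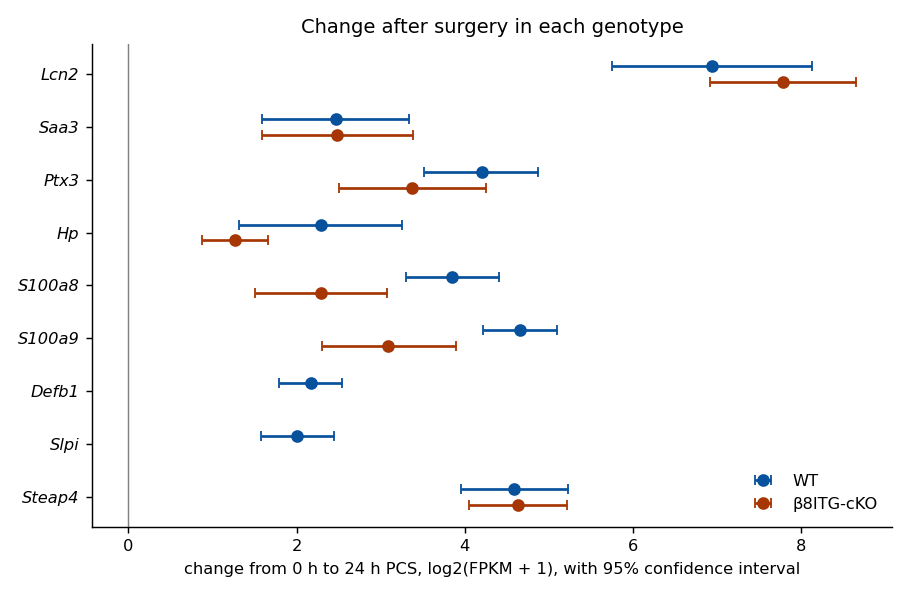
The horizontal axis gives the change from 0 to 24 hours PCS on the log2(FPKM + 1) scale and the vertical axis the gene, with WT in blue, β8ITG-cKO in brown and bars for the 95% confidence interval of the limma fit. The intervals of the genotypes overlap for Lcn2, Saa3, Ptx3, Hp and Steap4, the WT interval lies to the right of the β8ITG-cKO interval for S100a8 and S100a9, and Defb1 and Slpi have a WT point alone, as they were not tested in β8ITG-cKO.

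Between the genotypes at 24 hours PCS, 2 of the 9 genes were called lower in β8ITG-cKO, Defb1 and Slpi, against 0.286% of all genes, and none was called higher. Defb1 entered this test only through its WT values. Slpi was past the threshold in none of the 6 fits that left out a library, so the count is a description. The libraries were apart in the lower direction for 5 genes, against 9.0% of all genes tested. A total of 5 genes were called lower in 1 fit over all 12 libraries, which shares an estimate of the spread, and Defb1 was past the threshold under every alternative (adjusted P = 7.64e-05 to 0.0152). An exact permutation test of 3 against 3 libraries cannot go below P = 0.1, so the calls rest on the spread that limma borrows across genes.

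**Figure D3:**
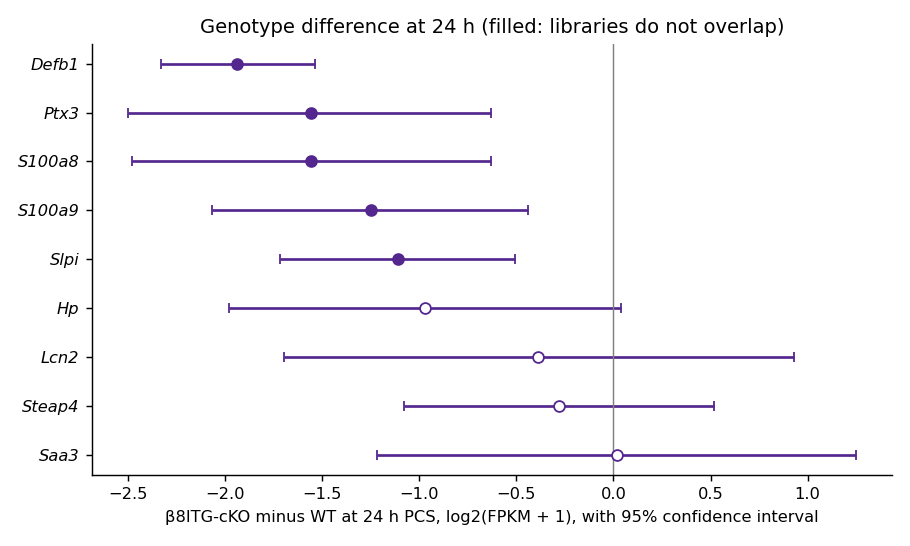
The horizontal axis gives the difference of β8ITG-cKO minus WT at 24 hours PCS on the log2(FPKM + 1) scale and the vertical axis the gene, ordered by it, with the 95% confidence interval and filled points where no libraries overlap. Defb1, Ptx3, S100a8, S100a9 and Slpi are filled and lie below 0, and the intervals of Hp, Lcn2, Steap4 and Saa3 include 0.

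An interaction term over 12 libraries tested whether the rises differed between the genotypes. For Saa3, S100a8 and Slpi, listed at 0 in all libraries of 0 hours, it repeats the genotype difference at 24 hours and gives no separate evidence. S100a9 and Defb1 were near the floor at 0 hours too, and all of these entered the fit only through their 24 hours values. The rise was smaller in β8ITG-cKO for Defb1 (−1.71 ± 0.21, limma adjusted P = 0.00222), S100a9 (−1.57 ± 0.43, adjusted P = 0.0416) and Slpi (−1.11 ± 0.30, adjusted P = 0.0399), so 3 of the 9 genes passed, against 9.39% of all genes in either direction. S100a8 was close to the threshold at −1.56 ± 0.45 (adjusted P = 0.053). Defb1 passed with each of the 12 libraries left out in turn but not with a pseudocount of 0.1 (adjusted P = 0.0664). S100a9 passed in 2 of those 12 fits, without WT 24 hours replicate 2 or β8ITG-cKO 24 hours replicate 3, and Slpi in 2, without WT or β8ITG-cKO 24 hours replicate 3. The other differences were −0.82 for Ptx3 (interval −1.99 to 0.34), −1.02 for Hp (−2.09 to 0.06), 0.84 for Lcn2 (−0.73 to 2.42), 0.02 for Saa3 (−1.30 to 1.33) and 0.04 for Steap4 (−0.85 to 0.93). For Ptx3 the level of β8ITG-cKO was lower at 0 hours too, at 0.233 of the WT mean.

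At 0 hours, only Lcn2 and Ptx3 were abundant enough to test between genotypes. None of the 9 was called lower in β8ITG-cKO by limma, against 1.18% of all genes, while both had an unadjusted P under 0.05. The libraries of Lcn2 and Defb1 did not overlap, with the β8ITG-cKO libraries lower, as for 12.8% of all genes. Lcn2 was 2.83-fold lower in the mean of β8ITG-cKO (−1.23, interval −2.03 to −0.43, adjusted P = 0.076), and it passed after rescaling of the libraries to the same median (adjusted P = 0.0465). Ptx3 differed by −0.74 (interval −1.38 to −0.09, adjusted P = 0.159), and its libraries overlapped.

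Within the 24 hours groups most genes were highest in replicate 3 of either genotype, with exceptions. In WT, replicate 3 was the highest for 6 genes (Lcn2, Saa3, Ptx3, Hp, Defb1 and Steap4), and replicate 1 was the highest for S100a8, S100a9 and Slpi. In β8ITG-cKO, replicate 3 was the highest for 7 genes, all but Ptx3 and Defb1, and replicate 2 was the lowest for 5 genes (Lcn2, Saa3, S100a8, S100a9 and Steap4). The widest spread within a group was that of Hp in WT, 5.45-fold between the highest and the lowest library, and the narrowest that of Defb1 in WT, 1.22-fold. Across the 12 libraries, the genes most like Lcn2 in log2(FPKM + 1) were Ltbp1, Steap4 and Plpp3 (Pearson's r of 0.994 to 0.996), and those most like Steap4 were Lcn2, Ltbp1 and Vcam1. Rtp4, Cp and Znfx1 were most like Saa3, Rnf125, Srgap1 and Cxcl5 most like Ptx3, and Synpo, Sec23ip and St6gal1 most like Hp. Tmed2, S100a9 and Cd300lf were most like S100a8, and Cd300lf, Lyn and Tll1 most like S100a9. Lgals3, Stfa3 and Tgfb2 were most like Defb1 (r of 0.962 to 0.988), and Zwint, Pdpn and 1700017B05Rik most like Slpi. All of these correlations contain the step from 0 to 24 hours, over libraries that the genes share.

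Summed markers of immune cells rose over time with the calprotectin genes. The 16 neutrophil markers summed to 0.68 to 1.54 FPKM in the 0 hours libraries, to 30.8, 25 and 26.9 FPKM in the WT 24 hours libraries and to 18.3, 13.3 and 25.1 FPKM in the β8ITG-cKO 24 hours libraries. Within each genotype at 24 hours, the 3 libraries had the same order by this sum as by S100a9. By S100a8 the order was the same in β8ITG-cKO but not in WT, where S100a8 was lowest in replicate 3 and the sum in replicate 2. Csf3r, the G-CSF receptor of neutrophils, had 8.8, 8.12 and 11 FPKM in WT and 6, 3.51 and 9.15 FPKM in β8ITG-cKO at 24 hours, and Itgam, an integrin of myeloid cells, had 9.69, 8.42 and 10.7 against 5.35, 4.9 and 8.21 FPKM. The neutrophil markers Ly6g, Mpo and Elane were listed at 0 in all 12 libraries. Over time, 4 of 8 tested neutrophil markers were called higher in WT (Csf3r, Mmp9, Il1r2 and Cxcr2) and 2 of 5 in β8ITG-cKO (Csf3r and Mmp9). The shares of all genes called higher were 10.3% and 11.3%. The called markers were near the floor at 0 hours and passed the filter only through their 24 hours values, so the counts are descriptions. At 24 hours none of 9 neutrophil markers was called between genotypes. The 15 macrophage and monocyte markers summed to 49.2 to 61.8 FPKM in WT and 47 to 71.3 FPKM in β8ITG-cKO at 24 hours, with none of 12 called. The part of immune cells in the rise of S100a8 and S100a9, or in their genotype difference, was not tested. Red blood cell markers moved as well. The 7 of them summed to 68.0 to 153 FPKM in WT and 6.52 to 15.8 FPKM in β8ITG-cKO at 0 hours, and to 36.0 to 220.0 FPKM and 87.4 to 195 FPKM at 24 hours. Of 5 tested, 4 were called lower in β8ITG-cKO at 0 hours, against 1.18% of all genes. Over time 4 were called higher in β8ITG-cKO, against 11.3% of all genes. None was called in WT over time or between genotypes at 24 hours. The part of blood in the levels of the 9 genes, or in the genotype differences at 0 hours, was not tested.

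**Figure D4:**
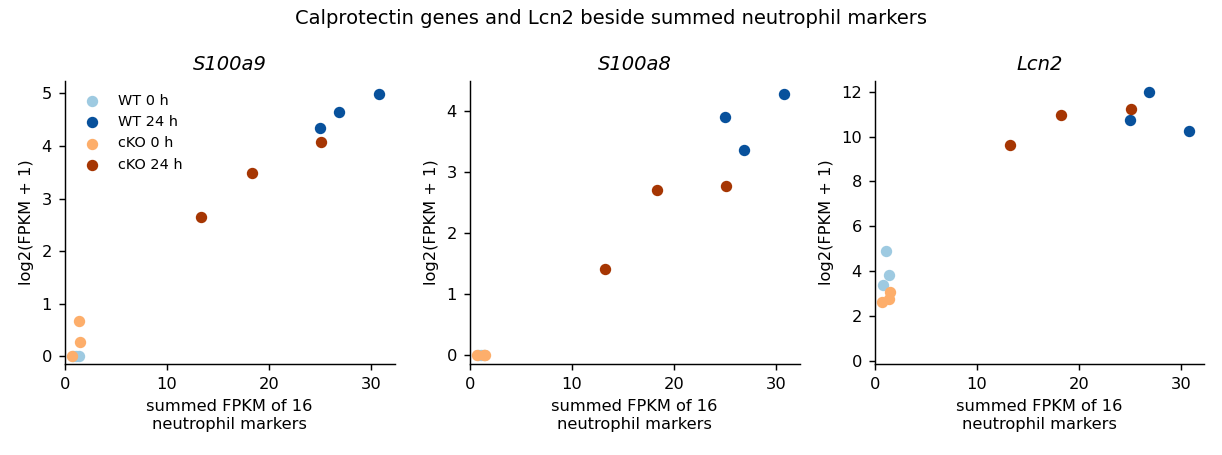
The horizontal axis gives the summed FPKM of 16 neutrophil markers and the vertical axis log2(FPKM + 1) of S100a9, S100a8 and Lcn2, 1 point per library, with overlapping points near the origin at 0 hours. S100a9 mostly runs from low to high with the marker sum over the 24 hours libraries, which span 13.3 to 30.8 FPKM. S100a8 follows it less closely, with 14 FPKM at a sum of 25 FPKM in WT and 5.83 FPKM at 25.1 FPKM in β8ITG-cKO. Lcn2 is highest in a WT library of 26.9 FPKM.

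Surface epithelium also makes Defb1 and Slpi. The 12 markers of corneal and surface epithelium summed to 305, 157 and 415 FPKM in WT and 144, 151 and 197 FPKM in β8ITG-cKO at 24 hours PCS, and to 212 to 277 FPKM in WT and 543 to 920 FPKM in β8ITG-cKO at 0 hours. Most of each sum was Aldh3a1, an aldehyde dehydrogenase abundant in cornea, with 279, 151 and 392 FPKM in WT and 138, 145 and 189 FPKM in β8ITG-cKO at 24 hours. The keratin gene Krt5 had 3.53, 0.12 and 6.88 FPKM in WT and 0.13, 0.59 and 0.29 FPKM in β8ITG-cKO at 24 hours. None of the 8 markers tested was called between genotypes at 24 hours, and the part of surface epithelium in the levels of Defb1 and Slpi was not tested. Of the 6 liver markers, Fga and Ahsg were listed at 0 in all libraries and Alb in all but WT 0 hours replicate 3, at 0.22 FPKM. Apoa1 had at most 0.17 FPKM, and Serpina1a had 0.13 to 0.76 FPKM. Ttr had 12.9 to 31.8 FPKM in WT and 6.46 to 12.1 FPKM in β8ITG-cKO at 0 hours. At 24 hours Ttr had 0.29 to 0.67 and 1.14 to 4.34 FPKM.

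Other acute-phase genes rose with these. Of 33 listed, 13 were tested in WT over time, 9 were called higher and 2 lower, against 10.3% and 3.92% of all genes, with a median of 1.55. Serpina3n, a secreted protease inhibitor, had 9.28, 11.6 and 3.12 FPKM at 0 hours and 514, 244 and 301 FPKM at 24 hours PCS in WT (5.38 ± 0.44, limma adjusted P = 0.000328). Il1rn, the IL-1 receptor antagonist, rose by 3.94 ± 0.28 (adjusted P = 0.000169) and Cd14, the co-receptor of bacterial lipopolysaccharide, by 3.12 ± 0.26 (adjusted P = 0.000349), while Ttr, transthyretin, fell by 3.64 on the log2 scale (adjusted P = 0.000499). In β8ITG-cKO 8 of 13 were called higher and 1 lower, against 11.3% and 3.77%. At 24 hours none of 15 was called between genotypes, while Mt2, Cd14 (lower), Ttr and Orm2 (higher) were called under 1 or more alternatives. Serpina3n differed already at 0 hours, at 29.3, 42 and 39.3 FPKM in β8ITG-cKO, 2.21 ± 0.38 above WT (adjusted P = 0.0197), a call lost without a filter and without WT replicate 1, β8ITG-cKO replicate 2 or β8ITG-cKO replicate 3.

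The other antimicrobial and antiprotease genes were mostly too low to test. Of 34 listed, 10 were tested in WT over time, with 1 called higher and 1 lower (10.3% and 3.92% of all genes), or 3 lower (with Wfdc2 and Cst3) after rescaling to the same median. Chil1, a chitinase-like protein, was called higher, with 174, 195 and 339 FPKM in WT and 181, 76.7 and 476 FPKM in β8ITG-cKO at 24 hours PCS (4.62 ± 0.39 in WT, limma adjusted P = 0.000355), and Wfdc1, of the same domain family as Slpi, was called lower (−1.74 ± 0.39, adjusted P = 0.0136). In β8ITG-cKO 3 of 7 were called higher (Chil1, Adm and Lyz2) and 2 lower (Wfdc1 and Cst3), against 11.3% and 3.77% of all genes, and none of 12 was called between genotypes at 24 hours, while Pglyrp1 was called lower in a single fit over all 12 libraries. The granule genes Ngp, Camp and Ltf stayed at or under 0.48 FPKM in every library. Of the other S100 genes, 6 of 8 tested were called higher in WT and 1 of 7, S100a16, in β8ITG-cKO, against 10.3% and 11.3% of all genes. After rescaling to the same median, 4 were called higher in WT, without S100a4 and S100a10. S100a6, a calcium-binding protein of many cell types, had a mean of 191 ± 18.4 FPKM (SD, n = 3) at 0 hours and 899 ± 230 FPKM at 24 hours in WT (2.2 ± 0.23 on the log2 scale, adjusted P = 0.000836). The rises of S100a16, S100a4 and S100a11 in WT were 1.66, 1.26 and 1.26 (adjusted P = 0.00293, 0.00835 and 0.0102). In β8ITG-cKO S100a16 rose by 1.33 ± 0.16 (adjusted P = 0.000501), while S100a6 had a higher level at 0 hours than in WT (1.30 ± 0.17, adjusted P = 0.00755). That call of S100a6 was lost without β8ITG-cKO replicate 3 or with a fold change over 4. By the interaction the rise of S100a6 was smaller in β8ITG-cKO (−1.74 ± 0.30, limma adjusted P = 0.00769). None of the 8 tested was called between genotypes at 24 hours.

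Genes of iron handling and relatives of Steap4 were tested next to Lcn2 and Steap4. Of 15 listed, 14 were tested, with 6 called higher and 2 lower in WT (10.3% and 3.92% of all genes) and 2 higher and 1 lower in β8ITG-cKO, against 11.3% and 3.77% of all genes. Hmox1, which breaks down heme, rose by 2.62 ± 0.21 in WT (limma adjusted P = 0.000283) and 2.86 ± 0.49 in β8ITG-cKO (adjusted P = 0.00251), and Hfe, a regulator of iron uptake, fell by 2.23 and 1.15 on the log2 scale (adjusted P = 0.000517 and 0.00119). The relatives of Steap4 rose in WT, Steap3 by 1.58 ± 0.24 (adjusted P = 0.00324), Steap2 by 1.38 (adjusted P = 0.000702) and Steap1 by 1.19 (adjusted P = 0.00174), and none of the 3 was called in β8ITG-cKO. Their means rose there too, by less than the 2-fold of a call, and Steap1 and Steap2 passed by the adjusted P alone. By the interaction, the rise was smaller in β8ITG-cKO for Steap2 (−0.87 ± 0.16, adjusted P = 0.00964) and Steap3 (−1.18 ± 0.31, adjusted P = 0.0366), where Steap4 itself differed by 0.04. Neither of these was called after rescaling without the 10 highest genes, and Steap3 was also lost without a filter and in 9 of 12 fits that left out a library, while Steap2 was called in all 12. Trf, transferrin, fell by 1.44 on the log2 scale in WT (adjusted P = 0.00965). Among 26 receptors and partners, 17 were tested in WT, with 4 called higher and 2 lower, against 10.3% and 3.92% of all genes. Slc22a17, a receptor of Lcn2, fell from 23.5, 33.5 and 23.8 FPKM to 8.87, 6.64 and 12 FPKM in WT (−1.47 ± 0.23, adjusted P = 0.00368), the opposite direction to its ligand. Fcgr3, a receptor for immunoglobulin, rose by 1.93 ± 0.30 (adjusted P = 0.00355) and Mmp9, the gelatinase that binds Lcn2, by 1.88 ± 0.31 (adjusted P = 0.00446). At 24 hours none of the iron or receptor genes was called between genotypes, apart from the ferritin gene Ftl1 (lower), Hfe (higher) and Cd14 (lower), which were called under some alternatives.

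Upstream of the response, 21 of 33 tested inducers and transcription factors were called higher in WT and 21 of 31 in β8ITG-cKO, against 10.3% and 11.3% of all genes, with none lower. After rescaling to the same median, 18 were called higher and 1, Traf6, lower in WT. Lif, a cytokine of the IL-6 family, had 1.39, 1.31 and 0.94 FPKM at 0 hours and 13.9, 28.5 and 20.7 FPKM at 24 hours PCS in WT (3.26 ± 0.25, limma adjusted P = 0.000246). Bcl3, a partner of NF-κB, rose by 3.07 ± 0.29 (adjusted P = 0.000539), Cebpd, a C/EBP factor of the acute-phase response, by 2.49 ± 0.26 (adjusted P = 0.000836) and Clcf1, another cytokine of the family, by 2.43 ± 0.42 (adjusted P = 0.00513). None of 34 tested was called between genotypes at 24 hours. At 0 hours, 5 of 24 were called lower in β8ITG-cKO and none higher, against 1.18% of all genes called lower. The count ran from 1 to 9 over the alternatives, with 9 after rescaling without the 10 highest genes or by the adjusted P alone, 2 with a fold change over 4 or without WT replicate 1 or β8ITG-cKO replicate 2, 3 without β8ITG-cKO replicate 1, and 1 without a filter or without β8ITG-cKO replicate 3, and Cebpd was the gene called in all of them. These were Cebpd (14.1, 12 and 7.74 FPKM in WT against 1.59, 1.97 and 1.76 FPKM, −2.11, adjusted P = 0.00269), Tnfaip3 (−2.21, adjusted P = 0.0249), Cebpb (−1.69, adjusted P = 0.00872), Relb (−1.49, adjusted P = 0.0171) and Nfkbiz (−0.91, adjusted P = 0.026), named after their values were seen. From this lower start Cebpd rose by 4.56 ± 0.16 in β8ITG-cKO (limma adjusted P = 2.78e-06 over time), to about the same level as in WT. By the interaction its rise was larger in β8ITG-cKO, by 2.06 ± 0.34 (limma adjusted P = 0.00685).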

How the data were processed

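LC RNA was made into stranded total RNA libraries from low input and sequenced as read pairs. The submitters' processing notes name FastQC, cutadapt 1.12, TopHat2 2.1.0 and Cuffdiff 2.2.1 with mm10 and GRCm38.p5. The authors deposited 4 tables of FPKM per library from Cuffdiff, each holding a pair of conditions, and the FPKM of all 12 libraries were identical in the tables that held them. Not used were 8 columns of the authors' means and the columns of Cuffdiff's own comparisons, which hold group values, fold changes and their p and q. No read counts were used, so precision from counting is unknown.

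Conditions were compared in pairs by limma 3.58.1 (limma-trend, two-sided) in R 4.3.3 on log2(FPKM + 1). Genes entered a test when the mean of the 6 libraries reached 0.5 FPKM, and P was adjusted over all of these by Benjamini-Hochberg. The study's criteria on group means were added for a call. The interaction of genotype and time was fitted over 12 libraries, where a call was an adjusted P of at most 0.05. The fits were tested on simulated data. The labels call the libraries biological triplicates. Genes named are the 9 members, Itgb8, up to 4 called genes of each list with the largest change in WT over time and up to 2 between genotypes at 24 hours, and the 3 genes most correlated with each member among those with a mean of at least 2 FPKM. Other named genes are markers or were named by value. The members and lists were chosen with earlier results of these data known. Alternatives covered the pseudocount, the filter, 2 rescalings, 1 fit over all libraries, the replicate block, library weights, the call criteria and each library left out. Positions are from GENCODE (GRCm38), and plots were drawn by matplotlib 3.10.9 in Python 3.11.15 with pandas 2.3.3 and numpy 2.4.6.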

Additional observations from a re-analysis of the deposited data

Results flagged for a closer look

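The change from 0 to 24 hours PCS differed between the genotypes, by the test of the interaction over 12 libraries, for 3 of the 9 genes. The rise was smaller in β8ITG-cKO by −1.71 for Defb1 (limma adjusted P = 0.00222), by −1.57 for S100a9 (adjusted P = 0.0416) and by −1.11 for Slpi (adjusted P = 0.0399) on the log2(FPKM + 1) scale. Slpi was listed at 0 in all libraries of 0 hours, so its value repeats the genotype difference at 24 hours. Defb1 and S100a9 were near the floor at 0 hours. The adjusted P ran from 0.00136 to 0.01 for Defb1, from 0.0194 to 0.0912 for S100a9 and from 0.0324 to 0.084 for Slpi with each library left out in turn. With a pseudocount of 0.1, none of the 3 passed (adjusted P = 0.0664 for Defb1, 0.0522 for S100a9 and 0.166 for Slpi).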

How the results depend on the processing

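Limits are 3 libraries per condition, unknown read depth and values listed at 0. Rises over time kept their direction and their side of the adjusted P threshold under all alternatives that tested them. With a pseudocount of 0.1 or 0.5, no filter, a filter of 2 FPKM, the replicate block or a fold change over 4, 1 member was called at 24 hours between genotypes in place of 2, and 5 in 1 fit over all libraries. At 0 hours 1 member (Lcn2) was called with either rescaling or with library weights, in place of 0. Members called in the interaction numbered 0 with a pseudocount of 0.1 and 1 without a filter or with one of 2 FPKM, in place of 3. Ptx3 had 0.37 there with a pseudocount of 0.1, and Saa3 had −0.05 after rescaling to the median at 24 hours and in the interaction.

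By adjusted P alone, 4500 genes were called over time in WT in place of 2159, 7030 in β8ITG-cKO in place of 2294, 966 at 24 hours in place of 562 and 1020 at 0 hours in place of 371. With a fold change over 4 these were 660, 899, 342 and 101. Without a filter 130 genes were called at 0 hours, and 224 with the replicate block. The interaction called 1433 genes, 930 with a filter of 2 FPKM, 2494 after rescaling without the 10 highest genes and 2571 with library weights. Rescaling to the median moved the WT calls over time from 1566 higher and 593 lower to 983 and 963, with the median of all genes from 0.16 to −0.05. The β8ITG-cKO calls over time went from 1719 higher and 575 lower to 1173 and 878, and to 2115 and 465 after rescaling without the 10 highest genes, which moved those at 0 hours from 198 higher and 173 lower to 86 and 449.

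With each library left out, 371 to 638 genes and 1 to 2 members were called at 24 hours, 125 to 378 genes and 0 to 1 member at 0 hours, and 688 to 1921 genes and 1 to 4 members in the interaction. Differences at 24 hours ran from −0.76 to 0.12 for Lcn2, −0.45 to 0.44 for Saa3 and −0.53 to 0.03 for Steap4, and in the interaction from −0.45 to 0.44 for Saa3 and −0.2 to 0.36 for Steap4. No pairing of the libraries by replicate number was seen, as none of 18 correlations of same-numbered deviations was over 0.1 (−0.25 to 0.1). Low correlations over all genes cannot exclude that same-numbered libraries were handled together. The block also left 2 members called in the interaction.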
